A study of Sus scrofa with 30 samples.

Results

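Interferon-stimulated genes are switched on when interferons bind their receptors and the receptor-bound kinases activate STAT factors, which enter the nucleus together with IRF9. Their products sense foreign nucleic acids, block viral replication or adjust the interferon response itself, and in the mammary gland they can be made by epithelial cells as well as by resident immune cells. The group described here was chosen by name: OAS1, OAS2, DDX60, MX1, MX2, ISG15, IRF7, RSAD2 and IFIT3, which makes 9 genes. Of these, 8 had at least 1 transcript in the deposited table, and MX2 was not analysed here. The annotation lists 16 transcripts for the 9 genes, of which 13 were in the table, among 61773 transcripts in all. Summed per gene, the table gave 26019 genes and assembled loci, of which 14958 are genes of the reference annotation.

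The members lie at several places in the pig genome (build Sscrofa11.1, RefSeq annotation, coordinates of the whole gene). OAS1 (chr14:38851083-38867427) and OAS2 (chr14:38827667-38847697) are neighbours, DDX60 (chr14:21077491-21163563) and IFIT3 (chr14:101214730-101225169) lie farther away on the same chromosome, and MX1 (chr13:204843049-204868927) lies beside MX2 (chr13:204798633-204821612). ISG15 was at chr6:63363201-63364211, IRF7 at chr2:372235-375572 and RSAD2 at chr3:128880853-128897809. OAS1 and OAS2 are related in sequence, as are MX1 and MX2, and how reads shared by such a pair were divided is not known from the values.

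RNA-seq was performed on mammary gland tissue of multiparous crossbred sows (Danish Landrace and Yorkshire, with a common parent), sampled on day 70 of gestation (mid-gestation, MG), day 110 of gestation (late gestation, LG), day 2 postpartum (early lactation, EL), day 10 postpartum (peak lactation, PL) and day 2 after weaning (W2). No animal received a treatment, and a sow was sampled at 1 stage. The table holds 6 samples per stage, but 3 of each 6 were near copies of the mean of the other 3: any pair among them differed by at most 1.85% (median over well expressed transcripts), against 19.6% to 59.8% for the pairs counted. For the members, the SD of the 3 counted samples was a median of 4.31 times that of the 3 near copies. The results therefore rest on 15 samples, n = 3 per stage, which are MG 1, 3 and 6, LG 1, 3 and 4, EL 3, 4 and 6, PL 2, 3 and 6, and W2 2, 3 and 6. The stage field of the sample records calls the samples titled EL mid-gestation and those titled MG early lactation. The titles were followed, and the summed level of 4 milk protein genes was 62371 to 90310 in TPM (transcript abundance per length, scaled to the same total in each sample) in the samples titled EL and 11882 to 29196 in those titled MG. PL sample 2 stood apart from the others, with 65.3% of its total in 20 genes and 1634 reference genes listed at 0. The table gives no reads per transcript, so the depth behind a single value is unknown and the precision comes from the spread between sows.

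The members were highest in LG. By the mean of log2(TPM + 0.5), LG was the highest stage for 8 of the 8 genes, whereas LG was the highest stage for 12.2% of all genes. By the plain mean it was highest for 6, and ISG15 and RSAD2 were higher in PL, where PL sample 3 had the highest value of the 15 samples for both. The order of the remaining stages differed from gene to gene. The lowest stage was MG for DDX60 and MX1, EL for IRF7, RSAD2 and IFIT3, W2 for OAS1 and ISG15, and PL for OAS2. The plot of member levels by stage shows the LG samples at or near the top of most panels, with PL sample 3 beside or above them. In bulk tissue, fewer cells that express a gene and less RNA of it per cell cannot be told apart.

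**Figure D1:**
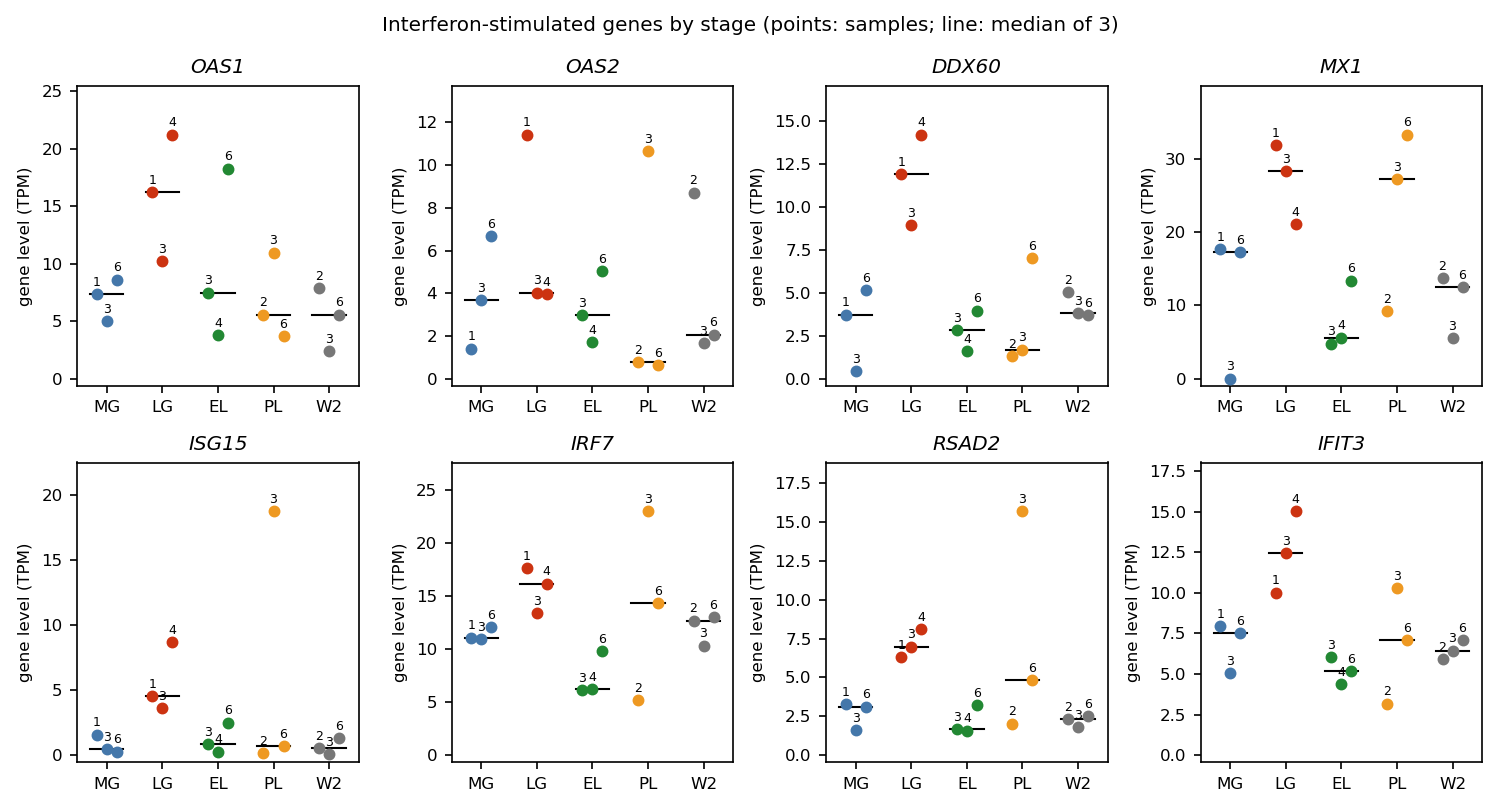
Level of each of the 8 members (TPM, summed over the transcripts of the gene, vertical axis) by stage (horizontal axis) in the 15 counted samples. Each point is 1 sow with its sample number and each line is the median of 3. DDX60 is the panel in which the 3 LG samples (8.93, 11.9 and 14.2) lie above the other 12.

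Values in TPM are per length, so levels can be compared between genes. MX1 had the highest mean over the 15 samples (16.1 TPM), followed by IRF7 (12.1 TPM), OAS1 (8.95 TPM) and IFIT3 (7.57 TPM). DDX60, OAS2 and RSAD2 were lower, with means of 5.01, 4.36 and 4.33 TPM. ISG15 was the lowest, with a mean of 2.94 TPM and a median of 0.840 TPM. Its highest sample was 22.3 times its median, the widest such ratio among the members, whose other ratios ran from 1.90 for IRF7 to 5.04 for RSAD2.

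Among the genes that sense or act on foreign RNA, DDX60 separated LG most clearly. DDX60 is a helicase that assists the sensing of viral RNA. Its level was 8.93, 11.9 and 14.2 TPM in LG, against 0.418, 3.73 and 5.15 in MG and 1.61, 2.80 and 3.96 in EL. It was 1.31, 1.69 and 7.02 TPM in PL and 3.67, 3.81 and 5.01 in W2. Every LG sample was thus above the other 12 samples, which was true of 0.208% of all genes and of no other member. This count was made after the stage levels had been seen. In PL 3 and MG 3 the main DDX60 transcript was listed at 0, which may be a failed estimate, so the separation from these samples is uncertain. The mean in LG was 11.7 ± 2.64 TPM (SD, n = 3), 3.77 times the mean in MG, and the log2 difference of LG from MG was 2.10 with a standard error of 0.65, and 1.29 without MG sample 3. In limma over all genes the adjusted p of that difference was 1, so DDX60 was not called.

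OAS1 and OAS2 encode synthetases that, once bound to double-stranded RNA, make the short oligoadenylates that activate RNase L. OAS1 was 10.2, 16.2 and 21.2 TPM in LG and 5.00, 7.32 and 8.61 in MG. It was 3.77, 7.48 and 18.3 TPM in EL, 3.68, 5.58 and 11.0 in PL, and 2.38, 5.58 and 7.90 in W2. The LG samples lay above those of MG and W2 and overlapped those of EL, through EL sample 6, and of PL, through PL sample 3. The mean in LG was 15.9 ± 5.50 TPM (SD, n = 3) and the largest difference was from W2 (log2 1.58, standard error 0.56, adjusted p = 0.571 in limma).

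OAS2 did not separate the stages. It was 3.96, 4.03 and 11.4 TPM in LG, 1.41, 3.66 and 6.67 in MG, and 1.72, 2.96 and 5.05 in EL. In PL it was 0.631, 0.771 and 10.7 TPM and in W2 1.65, 2.05 and 8.71. LG sample 1, PL sample 3 and W2 sample 2 were each high within their stage, and all stages overlapped. The largest difference, of LG from PL, was 1.30 on the log2 scale with a standard error of 0.87.

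MX1 and RSAD2 encode effectors that act on viral replication directly. MX1, a dynamin-like GTPase that binds viral nucleoprotein complexes, was 21.1, 28.3 and 31.8 TPM in LG, and 17.3 and 17.7 in MG 6 and MG 1, whereas MG 3 was listed at 0. It was 4.77, 5.59 and 13.4 TPM in EL, 9.24, 27.3 and 33.3 in PL, and 5.55, 12.5 and 13.8 in W2. LG lay above MG, EL and W2 and overlapped PL. The log2 difference of LG from MG was 2.32 with a standard error of 1.09, and it was 0.60 without MG sample 3, 3.19 without MG 1 and 3.17 without MG 6. In MG 3, 1 of the 2925 reference genes with at least 10 TPM in every other sample was also listed at 0. A listed 0 may be a failed estimate, which was not tested for MX1.

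RSAD2, also called viperin, is a radical-SAM enzyme that interferes with viral RNA synthesis. Its level was 6.29, 6.98 and 8.09 TPM in LG, 1.62, 3.11 and 3.30 in MG, and 1.57, 1.67 and 3.20 in EL. In PL it was 2.02, 4.82 and 15.7 TPM and in W2 1.80, 2.30 and 2.49. The LG samples lay above those of MG, EL and W2, and PL sample 3 lay above them. The mean in LG was 7.12 ± 0.908 TPM (SD, n = 3), and the largest difference by p was from EL (log2 1.57, standard error 0.53, adjusted p = 0.727 in limma).

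ISG15 and IFIT3 were also higher in LG than in MG, EL and W2, without overlap. Between 2 stages of 3 samples, a lack of overlap gives a two-sided exact p of 0.1, the smallest possible. The share of all genes without such overlap was not counted, here or for the other members. Whether the members differ in this from other genes is therefore unknown. ISG15, a ubiquitin-like protein that is attached to other proteins, was 3.60, 4.52 and 8.69 TPM in LG, 0.276, 0.476 and 1.57 in MG, and 0.252, 0.840 and 2.49 in EL. In PL it was 0.137, 0.690 and 18.7 TPM and in W2 0.0650, 0.542 and 1.28. The 5.60 ± 2.71 TPM of LG (SD, n = 3) was 7.22 times the mean of MG. The largest difference was from W2, 2.50 on the log2 scale with a standard error of 1.03 (adjusted p = 0.637 in limma).

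IFIT3, a tetratricopeptide-repeat protein that works with IFIT1 on foreign RNA, was 10.0, 12.4 and 15.0 TPM in LG. It was 5.05, 7.50 and 7.95 TPM in MG and 4.39, 5.15 and 6.04 in EL. In PL it was 3.17, 7.09 and 10.3 TPM and in W2 5.90, 6.43 and 7.09. PL sample 3 was the only sample of another stage that reached the LG range. The mean in LG was 12.5 ± 2.51 TPM (SD, n = 3), and the largest difference was from EL (log2 1.18, standard error 0.34, adjusted p = 0.687 in limma).

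IRF7, the transcription factor that amplifies type I interferon production, differed least in fold. It was 13.4, 16.2 and 17.6 TPM in LG, 11.0, 11.1 and 12.1 in MG, and 6.16, 6.20 and 9.81 in EL. In PL it was 5.17, 14.4 and 23.0 TPM, which spanned the values of every other stage, and in W2 10.3, 12.7 and 13.0. The log2 difference of LG from EL was 1.06 with a standard error of 0.40 (adjusted p = 0.769 in limma).

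Tested across all genes, no member passed the threshold in any comparison of stages. A gene was called where its limma p, adjusted over all genes, was below 0.05 and its log2 difference was 2 or more in size. In the comparisons of LG, 0 of 8 members were called in LG vs MG, where 0.0115% of all genes were called, in EL vs LG (0.0154%), in PL vs LG (2.7%) and in W2 vs LG (0.0307%). The members were likewise not called in EL vs MG (0.0269% of all genes), PL vs MG (3.95%), W2 vs MG (0.0115%), PL vs EL (1.05%), W2 vs EL (0.234%) and W2 vs PL (5.22%). Over all 10 comparisons, 6.55% of genes were called at least once and 0 of 8 members. The F test over the 5 stages was passed by 18.3% of all genes and by 0 of 8 members, whose adjusted p was lowest for RSAD2 (0.109), DDX60 (0.123) and IFIT3 (0.126) and highest for OAS2 (0.773). At an unadjusted p below 0.05 the F test held 3 of 8 members, against 33.8% of all genes. The exact permutation test of the 15 samples between the stages, gene by gene, gave p = 0.0518 for IFIT3, 0.0571 for RSAD2 and 0.0716 for DDX60, and from 0.183 to 0.738 for the other 5. With 3 samples against 3, a two-sided exact test cannot give a p below 0.1.

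The differences between LG and the other stages were of 1 direction. LG was above MG, EL, PL and W2 by mean log2 level in each of the 8 members, which restates that it was their highest stage. The members were measured in the same LG sows and in part varied together between sows, so they are not independent observations. In LG vs MG, 4 of 8 members were higher at an unadjusted p below 0.05 (DDX60, ISG15, RSAD2 and IFIT3), where 1.15% of all genes were. Their median log2 difference was 1.20, beside -0.11 over all genes. Against the mean of the other 4 stages, a comparison added after the stage levels had been seen, LG was higher by 2.01 for ISG15, 1.84 for DDX60, 1.48 for MX1 and 1.20 for OAS1 on the log2 scale. The values for RSAD2, IFIT3, OAS2 and IRF7 were 1.18, 0.96, 0.90 and 0.56. Of the 8 members 5 were higher at an unadjusted p below 0.05, against 3.61% of all genes, and 0 at an adjusted p below 0.05, against 0.0269%. The median over the members was 1.19, beside 0.09 over all genes.

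**Figure D2:**
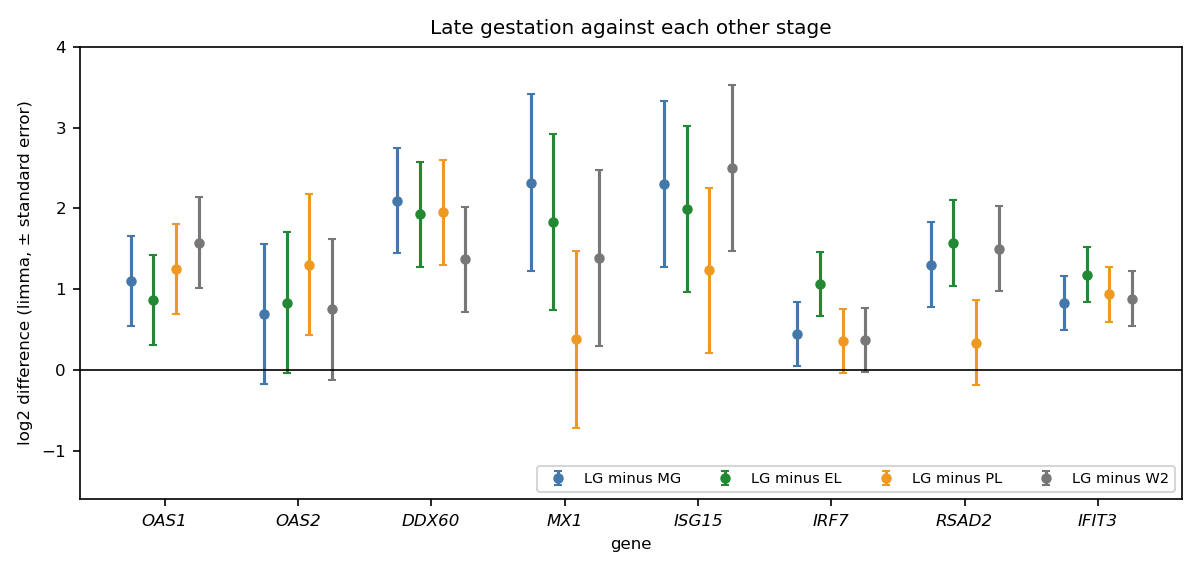
Log2 difference of LG from each other stage (vertical axis, limma, with its standard error as the bar) for each member (horizontal axis), coloured by the other stage. The 32 differences are above 0, from 0.34 for RSAD2 against PL to 2.50 for ISG15 against W2, and none was called. All of them rest on the same LG samples.

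The scaling between samples touches the comparison with PL. As deposited, the median over all genes was 0.45 lower in PL than in LG on the log2 scale, and the median over the members was 1.08 lower. After quantile normalization or scaling by the median ratio, the median of all genes was within 0.06 of 0, the members' median was 0.61 and 0.62 lower, and 3 of the 8 members, MX1, IRF7 and RSAD2, were higher in PL than in LG. The same 3 were higher in PL without PL sample 2. By gene sum, the direction of LG against MG, EL and W2 held for all 8 members in each alternative tried. In W2 vs PL, the median of all genes was 0.68 higher in W2 as deposited, where 3 of 8 members were higher in W2, and 0 of 8 were after either scaling.

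The PL sows differed widely from each other, and the SD of the log2 level was larger in PL than in any other stage for 5 of 8 members (OAS2, ISG15, IRF7, RSAD2 and IFIT3). The share of all genes was not counted. A wide spread in PL was not particular to the members. Over well expressed transcripts, pairs of counted PL samples differed by up to 59.8%, against at most 33.3% within any other stage. PL sample 3 was among the 4 highest of the 15 samples for 7 members, with the highest ISG15, IRF7 and RSAD2, and ranked 12 for DDX60. PL sample 6 had the highest MX1 and ranked 15 for OAS2 and 14 for OAS1. PL sample 2 had the lowest IRF7 and IFIT3. The heat map of the members shows this as a mostly red column for PL 3 beside a blue column for PL 2. LG sample 1 was among the 4 highest for 8 of 8 members.

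**Figure D3:**
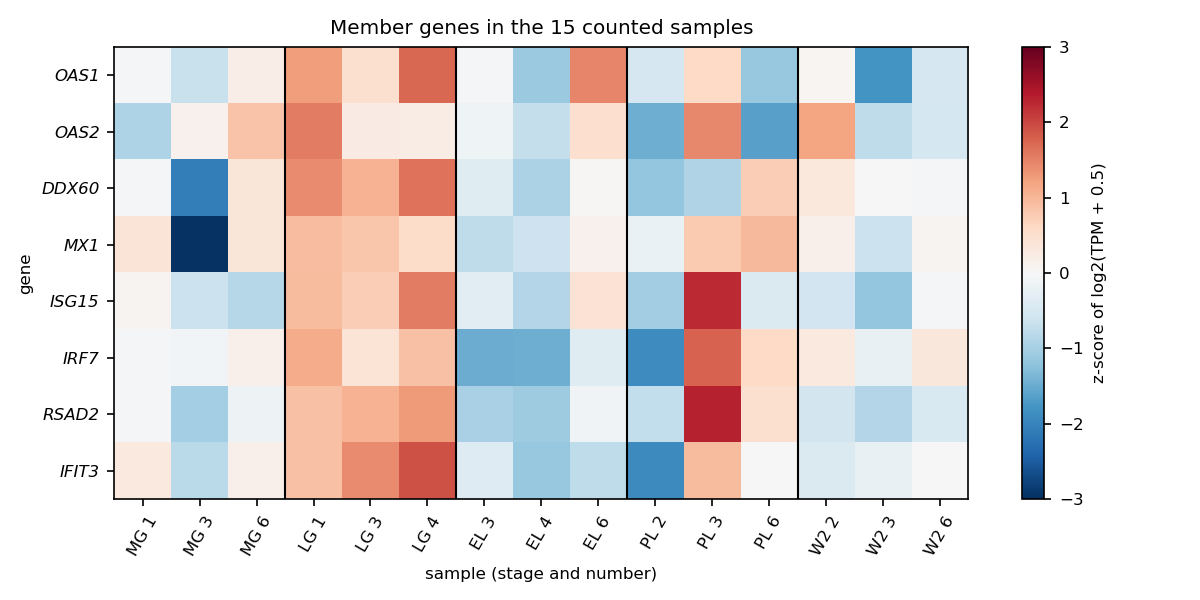
Level of each member (rows) in the 15 counted samples (columns, black lines between stages) as the z-score of log2(TPM + 0.5) over the samples, from blue (low) to red (high). The mean z-score was 1.12, 0.78 and 1.21 in the LG samples, 1.15 in PL 3 and -1.11 in PL 2.

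Leaving out a PL sample changed the calls. Without PL sample 3, OAS2 (log2 fold change -2.38, adjusted p = 0.0455 in limma) and ISG15 (-2.72, adjusted p = 0.0207) were called lower in PL than in LG, where 3.65% of all genes were called, and IFIT3 had an adjusted p of 0.0201 with -1.28. ISG15, RSAD2 and IFIT3 then passed the F test (18.8% of all genes). DDX60, ISG15, RSAD2 and IFIT3 were then higher in each LG sample than in the other 11, as 0.284% of all genes were. PL sample 3 was the only sample left out for this count, after its high values had been seen. Leaving it out favours such a separation, so the count is a description. Without PL sample 6, DDX60 was called lower in PL than in LG (-2.59, adjusted p = 0.0201 in limma, 3.03% of all genes called). Without PL sample 2, IRF7, RSAD2 and IFIT3 passed the F test (20.7% of all genes). The labels name no batch or illness of these sows, and none was tested.

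Variation between sows was followed with MX1, the member of the highest mean level. Over the 15 samples, MX1 was compared with each of the other 7 members on the log2 scale, 7 relations in all, with p-values from a permutation test that were not adjusted. Pearson's r was 0.75 with DDX60 (permutation p = 0.00075, Spearman's rho 0.72) and 0.68 with RSAD2 (p = 0.00711, rho 0.89). On deviations from the stage means, permuted within stages, r was 0.82 with DDX60 (permutation p = 0.0118) and 0.54 with RSAD2 (permutation p = 0.0243). With IFIT3 r was 0.55 (permutation p = 0.0338, rho 0.75), and 0.50 within stages (p = 0.0908). Leaving out MG 3 and EL 3, the samples farthest from the median of MX1, gave 0.59 with DDX60, 0.82 with RSAD2 and 0.69 with IFIT3.

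The relation of MX1 with the other members was looser by Pearson's r. It was 0.50 with ISG15 (permutation p = 0.061, rho 0.64), 0.48 with IRF7 (p = 0.0774, rho 0.81), 0.43 with OAS1 (p = 0.11, rho 0.46) and 0.17 with OAS2 (p = 0.558, rho 0.29). Within stages these were 0.29 (permutation p = 0.234), 0.38 (p = 0.0175), 0.40 (p = 0.0573) and 0.16 (p = 0.601). Without MG 3 and EL 3 they were 0.67, 0.76, 0.56 and 0.39. MX1 at 0 in MG 3 is a point far from the rest in each of these relations.

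Of the 8 members, 4 had more than 1 annotated transcript in the table. None of the 13 member transcripts passed the F test, the smallest adjusted p being 0.28 for the RSAD2 transcript, and none was called in any comparison, where 3.48% of all transcripts were called at least once. OAS2 was mostly NM_001031796.1 (70.4% of its summed TPM). Its other transcript, XM_021072182.1, exceeded 50% in PL sample 3 alone (74.7%). DDX60 was mostly XM_021072212.1 (66.4%), which was listed at 0 in MG 3 and PL 3. In these 2 samples the level came from XM_021072215.1 alone.

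IRF7 came mostly from NM_001097428.1 (72.4%), but in MG 6, EL 3 and PL 2 the transcript XM_021076250.1 held over 50%, and in PL 2 it held 100%. The third transcript, XM_021076252.1, was at 0 in 10 of the 15 samples, including all of PL and W2. IFIT3 was split between NM_001204395.2 (48.2%) and XM_021071929.1 (51.8%), of which the former led in 7 samples and the latter in 8, with either near 100% in some samples (97.9% for the former in EL 6, 100% for the latter in W2 6). The plot of transcript levels shows that the leading transcript changed between sows of a stage, so the gene sums were used for the stage comparisons.

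**Figure D4:**
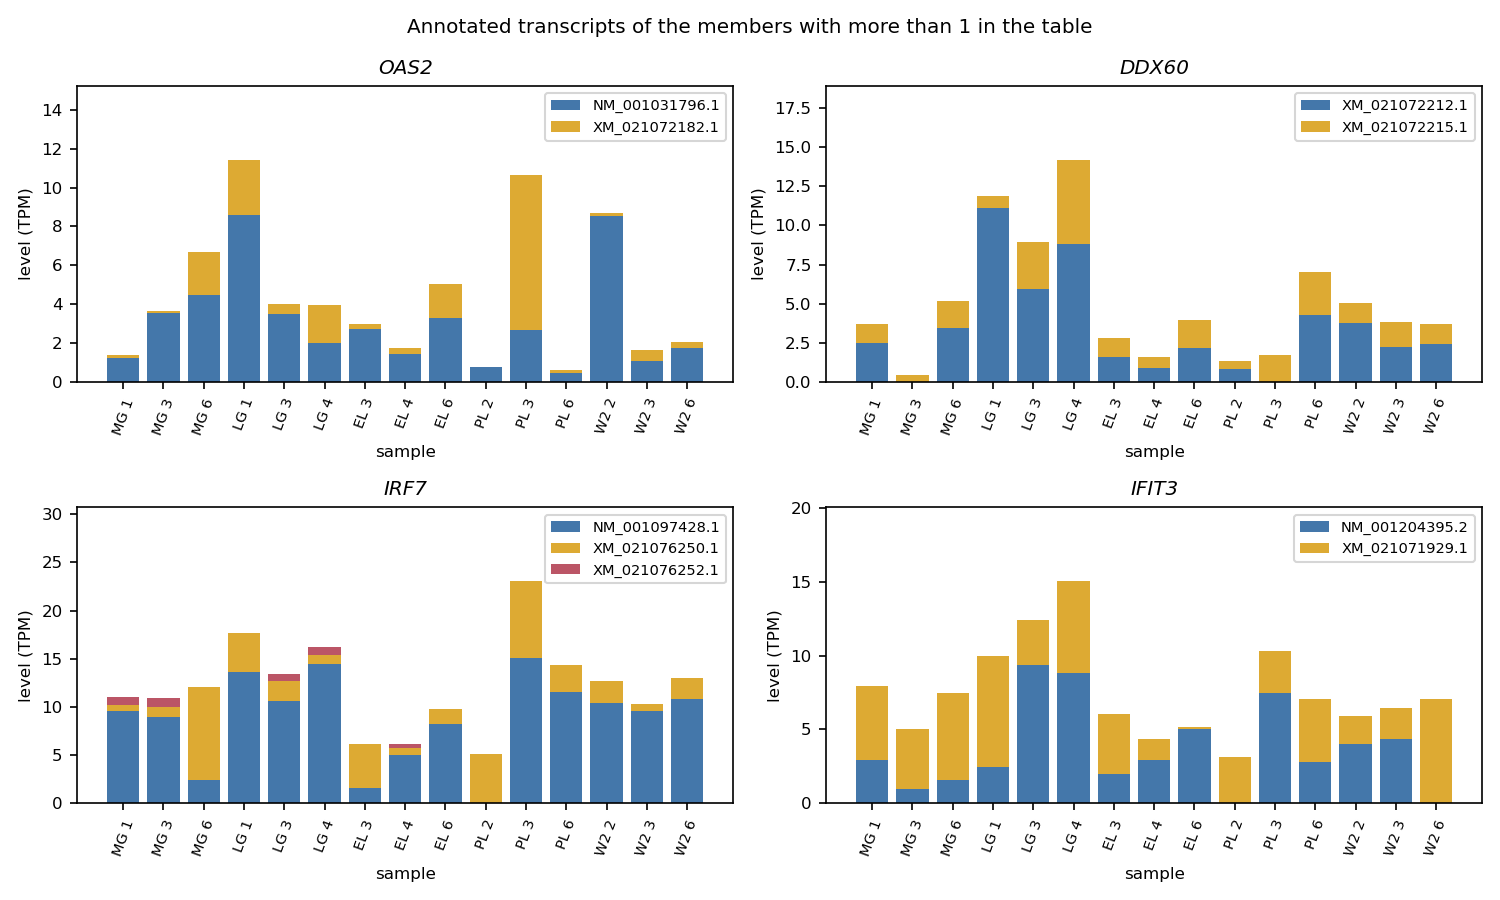
Level (TPM, vertical axis) of each annotated transcript, stacked to the gene sum, in each counted sample (horizontal axis) for OAS2, DDX60, IRF7 and IFIT3. In OAS2, XM_021072182.1 makes up 74.7% of PL 3, and in IFIT3 the leading transcript is NM_001204395.2 in 7 samples and XM_021071929.1 in 8.

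The genes whose pattern was most like that of the members were looked for among 12350 reference genes with a mean of at least 1 TPM, as Pearson's r with the mean z-score of the 8 members over the 15 samples. The 5 with the highest r were ISG12(A) (0.95), DHX58 (0.94), CMPK2 (0.93), IFI6 (0.93) and HSH2D (0.92). All points share the libraries, and r is given as a description. ISG12(A), a small protein of mitochondrial and nuclear membranes, had means of 194 TPM in LG, 105 in PL and 40.9, 41.1 and 45.7 in MG, EL and W2. Its LG samples were 118, 219 and 246 TPM, and PL sample 3, at 201 TPM, was the only other sample above 118. DHX58, a relative of the RNA sensor RIG-I, was 11.2, 13.3 and 14.7 TPM in LG, 12.2 in PL 3 and at most 7.80 in the remaining samples. CMPK2, a mitochondrial nucleotide kinase whose gene lies next to RSAD2 in many mammals, was 8.52, 9.41 and 10.3 TPM in LG and 8.26 in PL 3. HSH2D, an adaptor with an SH2 domain, was 10.5, 16.3 and 17.0 TPM in LG, and overlapped PL, with 13.2 in PL 3 and 12.4 in PL 6. EL 6, at 10.2 TPM, was just below the lowest LG sample.

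**Figure D5:**
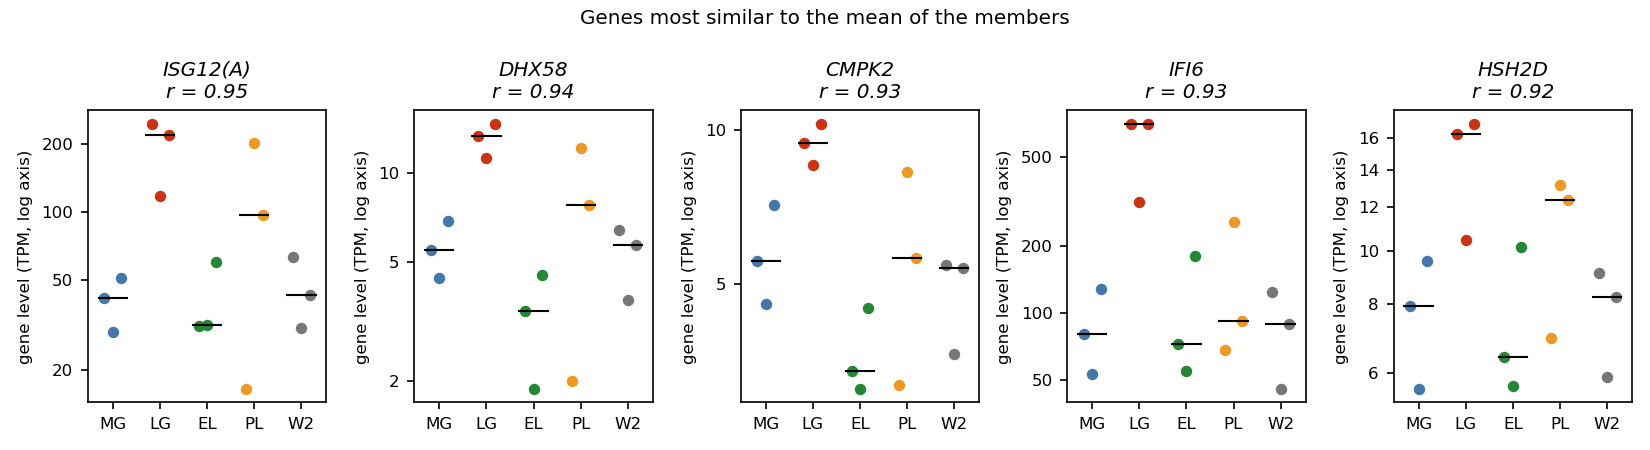
Level (TPM, log axis) of the 5 reference genes most similar to the members, by stage (horizontal axis). Points are the 15 counted samples, lines the median of 3 and r the correlation with the mean z-score of the members. In the IFI6 panel the LG samples are 315, 704 and 708 TPM and PL 3 is 256 TPM.

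The wider interferon pathway was followed with a list of 76 genes of receptors, kinases, STAT and IRF factors, sensors and effectors other than the members, of which 67 were in the table. Their median r with the members' mean was 0.39 over the 59 that passed the minimum level, beside 0.13 over all genes compared, and 18 of them were among the 100 highest. The 5 genes past the F test were 7.46% of the list, below the 18.3% of all genes, and 18 of 67 (26.9%) had an unadjusted p below 0.05. In LG against the mean of the other stages, 52 of 67 (77.6%) were higher, as were 61.3% of all genes. The median difference of the list was 0.30 on the log2 scale, beside 0.09 over all genes. After quantile normalization 47 of 67 were higher with a median of 0.21, and after median ratio scaling 49 with 0.27. The share of all genes higher after these scalings was not counted. Of the 67, 4 genes were called in at least 1 comparison (BST2, ADAR, IFI6 and UBA7), a share near the 6.55% of all genes, so their values are given for these genes and not as a result about the list.

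IFI6, a mitochondrial protein induced by type I interferon, was 315, 704 and 708 TPM in LG and fell in PL (67.7, 91.9 and 256 TPM), with a log2 fold change of -2.20 and an adjusted p of 0.028 in limma. In MG it was 53.2, 80.5 and 128 TPM, in EL 54.4, 71.9 and 179, and in W2 45.3, 89.3 and 124. The LG samples lay above the other 12. UBA7, the enzyme that activates ISG15 for its transfer to other proteins, was lower in PL than in LG (-2.53, adjusted p = 0.0215 in limma). Neither call held after quantile normalization or median ratio scaling, with the replicate number as a block or with the compared stages fitted alone. Both were also lost without LG sample 1 or 4 or without PL sample 6, and that of IFI6 without PL sample 2. The log2 fold change over all alternatives ran from -2.77 to -1.69 for IFI6. For UBA7 it ran from -3.22 to -1.61, the last without PL sample 6. IFIT1, the partner of IFIT3, was 11.2, 14.0 and 19.0 TPM in LG, 10.8 and 12.4 in PL 6 and PL 3, and 4.42 to 7.99 in the other 10 samples (adjusted p = 0.0606 by the F test, and 0.0115 and 0.0144 after quantile normalization and median ratio scaling, where it passed).

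BST2, known as tetherin, followed another course. It was 2.13, 2.99 and 8.69 TPM in PL against 14.3, 57.3 and 76.4 in LG, 15.3, 41.1 and 52.8 in MG and 29.2, 39.8 and 46.0 in EL, and it was called lower in PL than in LG (-3.20), EL (-3.12) and MG (-2.90), and higher in W2 than in PL (2.72), where it was 11.3, 41.5 and 47.9 TPM. With the compared stages fitted alone, none of these calls held (adjusted p from 0.0671 to 0.138 in limma). The call against LG held in 22 of 24 alternatives, and was also lost without LG sample 1 (-3.92 without LG sample 4). That against EL was also lost without EL sample 3, 4 or 6 and without PL sample 2 or 6. Those against MG and W2 were also lost after quantile normalization and median ratio scaling and without PL sample 2. The call against MG was lost without MG sample 3 too, and that against W2 without W2 sample 3 or 6 (3.36 without W2 sample 2). In PL 3, where most members were high, BST2 was low. ADAR, which edits double-stranded RNA, was 1.93, 4.50 and 4.81 TPM in MG, 1.28 in LG 1 and listed at 0 in the other 11 samples. Such a listed 0 may be a failed estimate, and assembled transcripts were summed under their own locus and not under ADAR. IFI35 was 35.4, 44.5 and 66.9 TPM in PL and 58.5 to 110 TPM in the samples of the other stages. TLR9, the endosomal sensor of DNA, was 0.103, 0.472 and 0.588 TPM in PL and 0.921, 2.08 and 3.41 in MG. BST2, IFI35 and TLR9 did not pass the F test after either scaling (adjusted p from 0.0900 to 0.261).

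SOCS1, an inhibitor of JAK kinases that interferons induce, was 2.20, 3.07 and 3.60 TPM in LG, 2.26, 2.37 and 3.84 in MG and 0.840, 1.16 and 1.40 in PL (adjusted p = 0.0606 by the F test). IRF1, a transcription factor that interferons induce, was 28.2, 31.2 and 33.2 TPM in LG, 29.2, 35.6 and 40.0 in MG and 9.30, 16.3 and 30.6 in PL (adjusted p = 0.0715 by the F test). In W2, SOCS1 was 2.43, 2.85 and 4.23 TPM and IRF1 was 33.6, 35.1 and 38.0 TPM. Neither had its highest values in LG, and by the plain mean W2 was the highest stage for both (3.17 and 35.6 TPM).

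The summed markers of immune cells were not highest in LG. The summed level of 4 leukocyte genes (PTPRC, CD53, LAPTM5 and CORO1A) was 63.4 to 83.8 TPM in LG, below the 80.3 to 106 of MG except for LG sample 4, and 76.6 to 87.8 in W2, 42.2 to 62.0 in EL and 19.9 to 60.1 in PL. The sum of T and B cell genes (5 of 6 in the table) was 16.6 to 18.3 TPM in LG and 17.6 to 25.4 in MG, 15.4 to 18.6 in W2, 8.48 to 16.0 in EL and 6.41 to 13.6 in PL. The sum of macrophage and monocyte genes (3 of 4 in the table) was 26.5 to 34.8 TPM in LG and 26.2 to 42.2 in MG. It reached 246 in PL 3 and 300 in PL 6, of which CD14 made up 234 and 298, and was 17.6 in PL 2. The other genes of that list were lower in PL 3 and PL 6 than in LG, with 4.27 and 0.177 TPM for CD163 against 10.5 to 14.2 in LG, and 7.46 and 1.81 TPM for CSF1R against 10.4 to 14.0. Of the neutrophil genes (4 of 4 in the table), S100A8 and S100A12 were at 0 in LG, and the sum was 1.09 to 1.43 TPM in LG, against 9.21, 17.0 and 47.0 in PL 2, PL 3 and PL 6 and at most 3.56 in the other stages. The part of these marker levels in the values of the PL samples was not tested. Luminal epithelial genes (KRT8, KRT18, KRT19 and EPCAM) summed to 1004 to 1165 TPM in LG, within the 929 to 1224 TPM of MG.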

How the data were processed

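RNA-seq of 30 mammary gland samples was analysed. Per the submitters' notes and the methods of the study, the authors used FastQC and Trimmomatic on the reads, HISAT2 with the Sscrofa11.1 genome for alignment and StringTie for transcript levels, and kept transcripts above a minimum level. Whether the deposited table was corrected for unwanted variation is not stated. The deposited values, called FPKM by the authors, add up to about the same total in each sample and were treated as TPM. Transcript values were summed per gene through RefSeq accessions (32396 transcripts), symbols (289) or their own name (41), and 29047 assembled transcripts through their locus. The members, lists and tests were chosen with earlier results of these data known. The contrast of LG with the other stages together was added after the stage levels had been seen.

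Values were analysed as log2(TPM + 0.5), so the fold changes of low genes are understated. limma 3.58.1 (R 4.3.3) fitted the 5 stages together with a variance trend, and p-values of each of the 10 comparisons were adjusted by Benjamini-Hochberg over 26019 genes and loci. Single members were tested by exact permutation over 1401400 partitions, and correlations with 100000 permutations (two-sided), in Python 3.11.15 with numpy 2.4.6, scipy 1.17.1 and pandas 2.3.3. The near copies were not counted. Alternatives were pseudocounts of 0.1 and 1, a minimum stage mean of 1, quantile normalization, median ratio scaling (genes of at least 10 TPM in every sample), the compared stages alone, the replicate number as a block, the near copies as 1 further sample, all 6 samples, and each sample left out in turn. The fit was tested on simulated data. Named genes were every member, the 8 pathway genes with the largest F statistic, and the 5 most similar genes. UBA7 and the further pathway genes of the closing observations fall outside this rule and were named after their values were seen. Sequences and promoter motifs were not analysed here. No batch is given in the labels.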

Additional observations from a re-analysis of the deposited data

How the results depend on the processing

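Counting the near copies changed most. With all 6 samples per stage, 7 members passed the F test, 1 member, ISG15, was called (in LG vs MG and, lower in W2, against LG and against PL), 7 members were higher in LG than in the other stages at an adjusted p below 0.05, against 10.1% of all genes, and 51 pathway genes passed the F test. That test was then passed by 19733 of all genes (75.8%), against 4758 (18.3%) as reported. The share of all genes called in each comparison with all 6 samples was not counted, so the calls of ISG15 cannot be set against it. As 1 further sample per stage they gave 4 of 8 members and 34 of 67 pathway genes past the F test, near the 48.9% of all genes, and 2 members higher in LG (0.715% of all genes). Near copies shrink the spread by construction.

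Quantile normalization gave 2 members past the F test (RSAD2 and IFIT3), 8 pathway genes past it (8.36% of all genes) and 2 called; median ratio scaling gave 10 pathway genes (8.16% of all genes) and 2 called. The compared stages alone gave 1 pathway gene called and adjusted p alone 12. Same-numbered samples of different stages correlated between -0.10 and 0.14 in their deviations (median -0.031), above 0.1 in 5 of 19 pairs. Samples of different numbers were above 0.1 in 14 of 71 pairs (median -0.043). A sow was sampled at 1 stage, so the numbers do not pair samples of a sow. These correlations cannot exclude another factor shared by samples of a number. The replicate block gave 2 pathway genes past the F test and 2 called (the calls of IFI6 and UBA7 were lost), and changed no call of a member.

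PL against LG reversed for MX1, IRF7 and RSAD2 under quantile normalization (PL minus LG, log2, 0.092 for MX1, 0.10 for IRF7 and 0.15 for RSAD2) and median ratio scaling (0.12, 0.12 and 0.12). Leaving out each sample gave -0.73 to 0.17 for MX1, -0.81 to 0.21 for IRF7 and -1.05 to 0.29 for RSAD2, above 0 without PL 2. The cause was not tested. Leaving out each sample, 0 to 2 members were called in PL vs LG and in any comparison, 0 to 3 passed the F test, and 2 to 5 pathway genes were called and 2 to 19 passed the F test (19 without PL 2). DDX60, ISG15, RSAD2 and IFIT3, 4 members, had all LG samples highest without PL 3, against 0.284% of all genes. PL 3 was left out for this count after its high values had been seen, which favours the separation.

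The correlation of MX1 with OAS1 passed p below 0.05 under quantile normalization (0.51), median ratio scaling (0.52) and without 2 samples (0.56), with ISG15 under quantile normalization (0.53) and without 2 samples (0.67), and with IRF7 at pseudocount 1 (0.53), under quantile normalization (0.64), median ratio scaling (0.64), without 2 samples (0.76) and within stages (0.38). With IFIT3 it did not pass at pseudocount 0.1 (0.48) or within stages (0.50). The direction of LG against MG, EL and W2 turned for no member in any alternative by gene sum. Of the single transcripts, XM_021076250.1 and XM_021076252.1 of IRF7 were slightly lower in LG than in MG (log2 -0.046 and -0.109).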

Other observations

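Within the interferon pathway list, the genes differed in how closely they followed the mean z-score of the members over the 15 samples. These correlations are descriptions over shared libraries. After DHX58, CMPK2 and IFI6, the closest were IFITM1 (r = 0.90), USP18 (0.89), EIF2AK2 (0.86), IFITM3 (0.86) and IFIT1 (0.84). USP18, which removes ISG15 from proteins and dampens interferon signalling, had means of 15.4 TPM in LG, 8.89 in MG, 8.44 in PL, 6.52 in EL and 6.25 in W2. EIF2AK2, the double-stranded RNA-dependent kinase PKR, had 13.0 TPM in LG and 7.05 to 8.59 in the other stages. IFITM3, a membrane protein that blocks the entry of viruses, had 501 TPM in LG and 262 to 327 in the others.

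The signalling genes followed less closely. Of the factors that carry the signal to the nucleus, IRF9 had an r of 0.75 and STAT2 0.56. IRF9 had a mean of 40.5 TPM in LG and 20.3 to 28.0 in the other stages. The receptor genes IFNAR2 (0.42), IFNAR1 (0.21) and IFNGR1 (0.07) and the kinase JAK1 (0.35) were lower, and MYD88, an adaptor of Toll-like receptors, had -0.33. None of the genes named here, other than IFI6, passed the F test over the 5 stages.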
